A study of Mus musculus with 6 samples.

Results

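The genes described here are 40 parts of the nucleolus, of RNA polymerase I (Pol I) and of the ribosome assembly line, taken by symbol from a table of 55487 genes, and all 40 symbols were found in it. They were of interest because I-PpoI, a homing endonuclease from a slime mould, cuts within the ribosomal DNA. RNA was measured in kidney endothelial cells of 6 mice. In the I-PpoI group, 3 mice carried VE-cadherin Cre, which is active in endothelium, and a STOP-I-PpoI transgene that Cre switches on, with genotypes labelled ROSA26, ROSA27 and ROSA28 in mice 1, 2 and 3. The control group was 3 wild-type littermates, and the labels name no Cre in them. All 6 mice ate chow until 8 weeks of age and then a high-fat diet with 60% of calories from fat for 4 weeks, and all carry batch 1 in the labels. Whole kidneys were digested with collagenase, cells were pulled down magnetically with a CD31 antibody, and total RNA was sequenced as paired ends. Each library is labelled as its own mouse, so the spread between libraries includes that between mice.

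Ribosomes begin in the nucleolus, where Pol I copies the tandem rDNA repeats into a long precursor that is cut, chemically modified and folded into the 18S, 5.8S and 28S rRNAs. Ubtf, the Taf1 factors and Rrn3 bring Pol I to the rDNA promoter. Small nucleolar ribonucleoproteins methylate (box C/D) or pseudouridylate (box H/ACA) the precursor, and separate sets of assembly factors build the small and the large subunit. A break in the rDNA is known to halt Pol I nearby and to move the rDNA to caps at the rim of the nucleolus.

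No member passed the test between I-PpoI and control mice, and no other gene did. Most members stood lower in I-PpoI libraries in FPKM (fragments per kilobase of exon, relative to library size), and so did most other genes. With median-of-ratios scaling, explained below, the members' median log2 difference was -0.12 and that of all genes 0.02, and with a common protein-coding total they were -0.42 and -0.26. In I-PpoI mice 1 and 2, Bysl, Heatr1 and Mybbp1a stood above every control, and all 3 share exon bases with a gene on the other DNA strand. Of all genes tested that share exon bases in this way, 2639 of 5714 stood above every control in both mice.

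The libraries differed in ways that touch every value below. FPKM times exon length and library size is a fragment count, and below 1000 it was whole, to within 0.05, for 99.2 to 99.4% of the values of the 54907 genes that GENCODE M21 places as the file does. These fragments came to 1577185, 828906 and 13230308 in I-PpoI mice 1, 2 and 3, against 13874607 to 16722913 in the controls. Minus-strand genes took 68.2 and 70.6% of mitochondrial fragments for mice 1 and 2 of the I-PpoI group and 0.0821% for mouse 3, while the controls had at most 0.0664%. Mitochondrial genes held 6.48, 38.5 and 48.6% of fragments in I-PpoI mice 1, 2 and 3, against 8.97 to 18.5% in the controls. Summed over 16 endothelial markers, all detected in every library, levels were 956 to 2315 FPKM in I-PpoI and 3108 to 3419 FPKM in control. Over 15 proximal tubule markers they were 242 to 2077 against 463 to 1285 FPKM, with the highest sum in I-PpoI mouse 3. Of these tubule sums, Kap alone made up 710 FPKM in I-PpoI mouse 3 and 755 FPKM in control mouse 2. Sums were also lower without overlap for distal nephron and podocyte markers (266 to 498 FPKM in I-PpoI against 873 to 1425 in control), mural and fibroblast markers (396 to 434 against 686 to 933) and erythroid markers (103 to 213 against 243 to 992), and those of leukocyte markers overlapped (84.7 to 199.7 against 31.9 to 198). The Y-linked Ddx3y had 20, 0 and 0 fragments in I-PpoI mice 1, 2 and 3, against 959 to 1672 in the controls, and Xist had 0, 70 and 4739 against 4, 0 and 0. Up to 3 fragments are possible behind a count of 0. The part of strand, mitochondrial share, cell-type marker levels or sex in the results was not tested.

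Some sequence at the loci helps to place the results. Within the file's 18S rRNA gene model CT010467.1 (GRCm38, plus strand), the last stretch, chr17:39848052-39848201, is shown because the model CT010467.2 on the minus strand covers the bases in capitals (from the GENCODE M21 transcripts, turned to the plus strand). The file has CT010467.1 on the plus strand and GENCODE M21 has the same gene on the minus strand, and the file's strand is used here. RefSeq labels the gene at this place, Rn18s-rs5, a pseudogene.
CT010467.1: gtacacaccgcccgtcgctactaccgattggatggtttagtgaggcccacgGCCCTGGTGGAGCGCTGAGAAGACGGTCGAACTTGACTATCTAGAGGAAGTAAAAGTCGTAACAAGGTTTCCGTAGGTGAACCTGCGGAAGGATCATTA
The E-box CACGTG, which reads the same on both strands and is the motif that Myc is known to bind, was searched in RefSeq promoters (GRCm38.p6, from 250 bases before to 50 after each gene start). Of the members, 34 had an entry and 6 held the motif (17.6%), against 8.09% of all genes in that table. The 6 were Rrn3, Nop2, Pes1, Wdr43, Mybbp1a and Utp20. The promoters of Rrn3 (chr16:13780449-13780748) and Nop2 (chr6:125131633-125131932), both on the plus strand, are printed with the motif in capitals, as one initiation factor and one assembly factor picked from the 6.
Rrn3: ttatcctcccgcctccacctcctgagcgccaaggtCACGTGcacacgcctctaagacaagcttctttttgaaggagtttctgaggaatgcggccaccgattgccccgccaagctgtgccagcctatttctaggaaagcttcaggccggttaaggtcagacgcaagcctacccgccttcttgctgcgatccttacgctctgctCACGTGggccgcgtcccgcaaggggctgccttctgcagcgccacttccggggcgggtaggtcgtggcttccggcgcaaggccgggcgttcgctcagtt
Nop2: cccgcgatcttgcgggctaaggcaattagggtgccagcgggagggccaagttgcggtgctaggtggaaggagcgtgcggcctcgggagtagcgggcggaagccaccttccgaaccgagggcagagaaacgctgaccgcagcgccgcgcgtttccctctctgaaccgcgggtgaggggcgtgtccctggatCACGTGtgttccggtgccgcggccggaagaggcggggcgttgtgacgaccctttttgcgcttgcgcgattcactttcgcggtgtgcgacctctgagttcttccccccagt
A match is a description of the letters only. Rrn3 has 2 matches, the first of which begins 215 bases before the RefSeq start, and the match in Nop2 begins 60 bases before it.

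The question of the series' design was which transcripts differed between I-PpoI and control endothelium. Levels were compared with limma on log2(FPKM + 1), a scale that understates changes of low genes. A mean of at least 1 FPKM was required, which 39 of the 40 members and 14962 genes reached, and p-values were adjusted by Benjamini-Hochberg over all of those genes. At adjusted p under 0.05, 0 of 39 members passed, as did 0% of all genes tested, and the smallest adjusted p was 0.132. At an unadjusted p under 0.05 there were 13 members, all lower in I-PpoI, against 36.5% of all genes (32.2% lower and 4.23% higher), and without control mouse 1, 2 or 3 there were 3, 3 and 2 members, against 11.2, 16.7 and 13.6% of all genes. The median log2 fold change was -0.82 over the members and -0.65 over all genes tested, and 34 of 39 members lay below 0, against 71.6% of all genes. All 3 I-PpoI libraries lay below all controls for 22 of 39 members, against 45.1% of all genes, and above all controls for 0, against 2.24%.

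Dividing each library by its median ratio to the genes' geometric means (median-of-ratios scaling) brought the median over all genes to 0.02. It did not bring every kind of gene there. Genes with no gene on the other strand within 5 kb had a scaled median of -0.28. Those that share exon bases with one had 0.76. Then 24 of 39 members lay below 0, against 49.2% of all genes. No member then had an unadjusted p under 0.05, against 8.31% of all genes. The groups did not overlap for 3 members with I-PpoI lower (Taf1b, Taf1c and Nat10), against 9.76% of all genes. They also did not overlap for 2 with I-PpoI higher (Mybbp1a and Rrs1), against 7.65%. In bulk RNA, fewer cells of a type and less RNA per cell cannot be told apart.

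**Figure D1:**
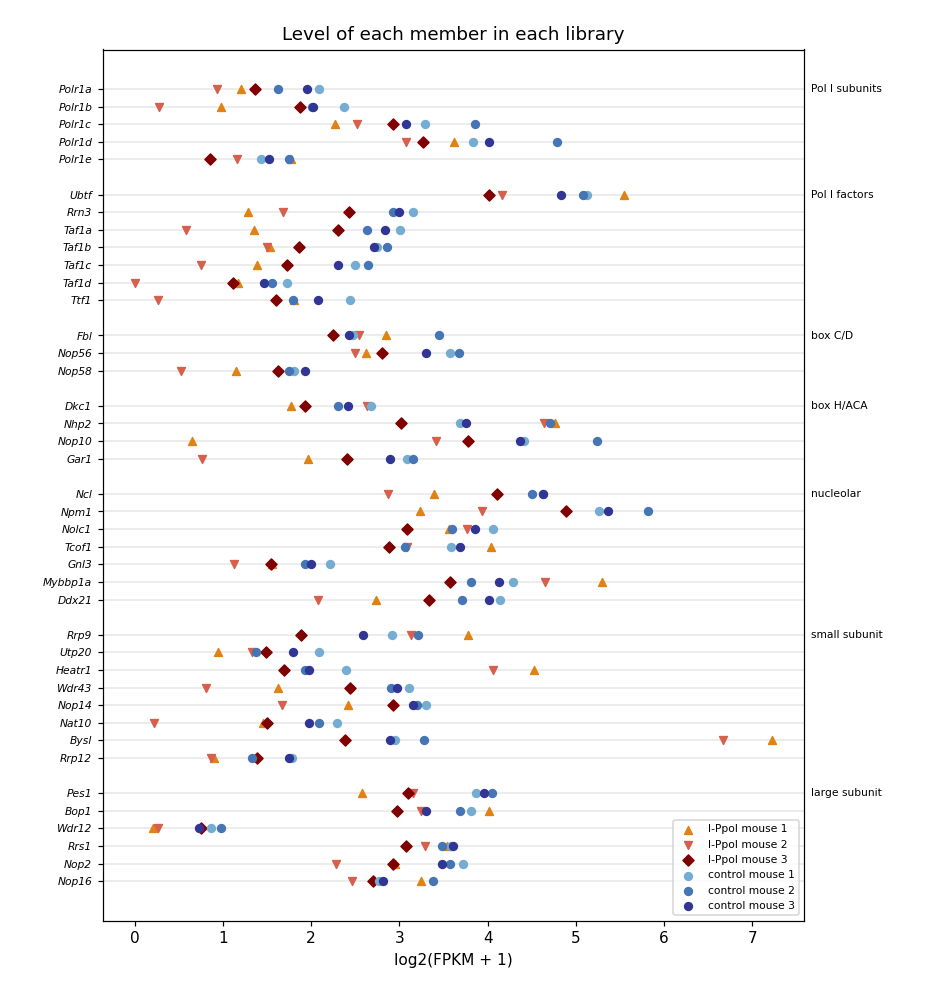
Level of each of the 40 members in each library as log2(FPKM + 1), grouped by role, with orange and red symbols for I-PpoI mice 1, 2 and 3 and blue circles for control mice 1, 2 and 3. I-PpoI mouse 3 lies below all controls for 37 of the 39 members tested, against 70.7% of all genes. Bysl, Heatr1 and Mybbp1a in I-PpoI mice 1 and 2 lie above all controls, as do 21.7% of all genes.

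Of the polymerase itself, 5 subunits are members, and 0 of the 5 had an unadjusted p under 0.05. For this count and the same count in each role and list below, the share over all genes is 36.5%, so counts near it say nothing particular of the group. Wherever genes below are said to lie lower in I-PpoI without overlap in FPKM, the share over all genes is 45.1%. Polr1d, a small subunit that Pol I shares with Pol III, had the highest mean level and the smallest p of the 5. It was at 11.3, 7.45 and 8.61 FPKM in mice 1, 2 and 3 of the I-PpoI group, against 13.2, 26.5 and 15.1 FPKM in control mice 1, 2 and 3. All I-PpoI libraries lay below all controls, with means of 9.11 ± 1.96 against 18.3 ± 7.19 FPKM (SD, n = 3 each). The log2 fold change was -0.89 (SE 0.38, limma adjusted p = 0.135), and -0.10 after scaling. Its partner Polr1c was at 3.83, 4.72 and 6.62 FPKM in I-PpoI, against 8.78, 13.5 and 7.41 FPKM in control. The catalytic subunits Polr1a and Polr1b were lower in FPKM in all 3 I-PpoI libraries than in any control, at 0.905 to 1.57 against 2.09 to 3.27 FPKM for Polr1a and 0.206 to 2.66 against 3.02 to 4.19 FPKM for Polr1b. Polr1e overlapped between the groups, at 0.809 to 2.40 FPKM in I-PpoI and 1.70 to 2.37 FPKM in control.

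Among the 7 factors that start and stop Pol I, the median log2 fold change was -1.14 as deposited, against -0.65 for all genes, and -0.48 after scaling, against 0.02. An unadjusted p under 0.05 was found for 4 of the 7 factors. By library the scaled medians were -0.61, -1.02 and -0.04 in I-PpoI mice 1, 2 and 3, against 0.01, 0 and -0.02 for all genes. Ubtf, Rrn3, Taf1a and Ttf1 have no gene on the other strand within 5 kb. All such genes tested had a scaled median of -0.28. Ubtf, the HMG-box protein that coats active rDNA, was the most abundant, at 45.6, 16.9 and 15.2 FPKM in mice 1, 2 and 3 of the I-PpoI group, against 33.9, 32.7 and 27.4 FPKM in control. Only I-PpoI mouse 1 lay above the controls and the other two lay below them, so the groups overlapped (log2 fold change -0.44, SE 0.47, limma adjusted p = 0.460; exact two-sided permutation p = 0.4). The fold change was -0.92, -0.23 and -0.16 without I-PpoI mouse 1, 2 and 3 in turn. Taf1b, which is a subunit of the SL1 complex at the rDNA promoter, had the smallest p of all members. It was at 1.90, 1.82 and 2.63 FPKM in I-PpoI, against 5.68, 6.26 and 5.53 FPKM in control, with means of 2.12 ± 0.447 against 5.82 ± 0.382 FPKM (SD, n = 3 each). Its log2 fold change was -1.14 (SE 0.29, limma adjusted p = 0.132), with -0.48 after scaling, and the exact two-sided permutation p of 0.1 is the smallest that 3 against 3 can give. These levels rest on 8, 4 and 92 fragments in I-PpoI mice 1, 2 and 3, against 231 to 246 in the controls.

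The other SL1 subunits also stood below the controls in FPKM. Taf1a was at 1.55, 0.495 and 3.92 FPKM in I-PpoI, against 7.01, 5.19 and 6.12 FPKM in control, and Taf1c at 1.61, 0.684 and 2.30 against 4.66, 5.23 and 3.94 FPKM. Taf1d was at 1.25, 0 and 1.17 FPKM in I-PpoI, against 2.32, 1.95 and 1.75 FPKM in control, where the 0 allows up to 0.4 FPKM (3 fragments). Rrn3, the factor that makes Pol I competent to initiate, was at 1.44, 2.21 and 4.40 FPKM in I-PpoI, against 7.88, 6.60 and 6.996 FPKM in control (limma adjusted p = 0.132). For these 4 factors all I-PpoI libraries lay below all controls in FPKM, as did those of 45.1% of all genes. After median-of-ratios scaling that held only for Taf1c of the 4. Ttf1, the terminator protein, overlapped between the groups, at 0.198 to 2.48 FPKM in I-PpoI and 2.45 to 4.44 FPKM in control.

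The box C/D proteins carry out ribose methylation of rRNA, and 1 of the 3 had an unadjusted p under 0.05. Nop56, a core scaffold, had both the highest mean and the smallest p. It stood at 5.17, 4.66 and 5.99 FPKM in mice 1, 2 and 3 of the I-PpoI group, against 10.9, 11.7 and 8.84 FPKM in control, with means of 5.27 ± 0.670 against 10.5 ± 1.49 FPKM (SD, n = 3 each). All I-PpoI libraries lay below the controls (log2 fold change -0.87, SE 0.29, limma adjusted p = 0.132; -0.12 after scaling). Its partner Nop58 was at 0.444 to 2.09 FPKM in I-PpoI and 2.35 to 2.82 FPKM in control. Fibrillarin (Fbl), the methyltransferase, overlapped, at 3.76 to 6.22 FPKM in I-PpoI and 4.39 to 9.93 FPKM in control.

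Of the 4 box H/ACA proteins, which guide pseudouridylation, 1 had an unadjusted p under 0.05. That was Gar1, at 2.91, 0.696 and 4.29 FPKM in I-PpoI, against 7.47, 7.88 and 6.40 FPKM in control. Its groups did not overlap (log2 fold change -1.33, SE 0.48, limma adjusted p = 0.132; -0.71 after scaling). Gar1 rests on 8 and 1 fragments in I-PpoI mice 1 and 2, while I-PpoI mouse 3 had 98 and the controls 186 to 207. Nop10 had a log2 fold change of -2.06 (SE 0.86, limma adjusted p = 0.135), with -1.30 after scaling and -1.08 without I-PpoI mouse 1. It was at 0.562, 9.69 and 12.7 FPKM in I-PpoI, against 20.2, 36.8 and 19.6 FPKM in control, and the first value is 1 fragment. Nhp2 did not share this direction, at 26.1, 23.95 and 7.07 FPKM in mice 1, 2 and 3 of the I-PpoI group, against 11.9, 25.1 and 12.5 FPKM in control, so the groups overlapped (log2 fold change 0.09, SE 0.58, limma adjusted p = 0.904). Dkc1, the pseudouridine synthase, was at 2.42 to 5.21 FPKM in I-PpoI and 3.93 to 5.38 FPKM in control.

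Resident nucleolar proteins made up 7 members, of which 3 had an unadjusted p under 0.05. Nucleophosmin (Npm1), a nucleolar chaperone, was at 8.42, 14.3 and 28.6 FPKM in mice 1, 2 and 3 of the I-PpoI group, against 37.4, 55.5 and 40.3 FPKM in control. The I-PpoI libraries all lay below the controls and differed among themselves, with means of 17.1 ± 10.3 against 44.4 ± 9.74 FPKM (SD, n = 3 each). The log2 fold change was -1.46 (SE 0.48, limma adjusted p = 0.132), and -0.65 after scaling. The helicase Ddx21, which works in both Pol I and Pol II transcription, was at 5.66, 3.23 and 9.12 FPKM in I-PpoI, against 16.6, 12.0 and 15.2 FPKM in control (log2 fold change -1.24, SE 0.41, limma adjusted p = 0.132; -0.48 after scaling). Nucleolin (Ncl), which opens rDNA chromatin and binds the precursor, was at 9.49, 6.33 and 16.2 FPKM in I-PpoI, against 23.6, 21.7 and 23.6 FPKM in control. Nucleostemin (Gnl3) was at 1.17 to 1.94 FPKM in I-PpoI and 2.81 to 3.62 FPKM in control. Treacle (Tcof1) overlapped, at 6.36 to 15.4 FPKM in I-PpoI and 7.35 to 11.9 FPKM in control, and so did its relative Nolc1, at 7.48 to 12.6 FPKM in I-PpoI and 11.1 to 15.7 FPKM in control.

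Of the 8 small-subunit factors, 2 had an unadjusted p under 0.05, and their log2 fold changes ran from -1.37 to 2.38. Wdr43, a part of the complex that joins transcription to early cleavage, was lowest, at 2.09, 0.750 and 4.43 FPKM in I-PpoI, against 7.63, 6.46 and 6.83 FPKM in control (log2 fold change -1.37, SE 0.46, limma adjusted p = 0.132; -0.74 after scaling). Nat10, which acetylates 18S rRNA, was at 1.73, 0.166 and 1.82 FPKM in I-PpoI, against 3.89, 3.27 and 2.94 FPKM in control, and Nop14 at 4.34, 2.19 and 6.62 against 8.82, 8.15 and 7.89 FPKM. The groups did not overlap in FPKM for any of these 3, and after scaling that held only for Nat10. Utp20 was at 0.917 to 1.80 FPKM in I-PpoI and 1.60 to 3.25 FPKM in control, Rrp12 at 0.825 to 1.61 against 1.51 to 2.44 FPKM, and Rrp9, a U3 particle protein, at 2.69 to 12.8 against 5.03 to 8.26 FPKM. The groups overlapped for each of those 3.

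The large-subunit factors are 6 members, 5 of them tested, and 2 of the 5 had an unadjusted p under 0.05. Pes1, Bop1 and Wdr12 form the PeBoW complex. Pes1 was at 4.95, 7.89 and 7.57 FPKM in I-PpoI, against 13.5, 15.5 and 14.6 FPKM in control, with means of 6.80 ± 1.61 against 14.5 ± 0.969 FPKM (SD, n = 3 each). Its groups did not overlap (log2 fold change -1.01, SE 0.31, limma adjusted p = 0.132; -0.24 after scaling). Bop1 overlapped, at 15.2, 8.48 and 6.88 FPKM in I-PpoI, against 13.0, 11.9 and 8.84 FPKM in control (log2 fold change -0.19, SE 0.39, limma adjusted p = 0.698). Wdr12 stayed under the limit on low values, at 0.156 to 0.684 FPKM in I-PpoI and 0.661 to 0.9748 FPKM in control. The rRNA methyltransferase Nop2 was at 6.75, 3.88 and 6.61 FPKM in I-PpoI, against 12.2, 10.9 and 10.2 FPKM in control, with no overlap. Rrs1, which in yeast helps load the 5S particle, was at 7.44 to 10.7 FPKM in I-PpoI and 10.2 to 11.2 FPKM in control, and Nop16 at 4.53 to 8.45 against 5.84 to 9.40 FPKM, with overlap in both.

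I-PpoI mouse 3 is the only I-PpoI library with the controls' strand pattern. Its total is near theirs, but its strand-clear protein-coding genes held 2313833 fragments, against 4030814 to 4971485 in the controls. Its Xist and Ddx3y fragments were 4739 and 0, against 0 to 4 and 959 to 1672 in the controls. In this mouse sex and genotype therefore cannot be told apart. It was also set against the 3 controls alone, a comparison with 1 mouse on its side. In FPKM it lay below all controls for 37 of 39 members, against 70.7% of all genes, and above all controls for 0 of 39, against 6.17%. In a limma fit without I-PpoI mice 1 and 2, 0 members passed at adjusted p under 0.05 and 14 had an unadjusted p under 0.05, against 29.6% of all genes. The members' median difference on the log2 scale was -0.57 and that of all genes -0.54. With median-of-ratios scaling of these 4 libraries, a setting added after the data were seen, the medians were 0.03 and 0.00. It then lay below all controls for 7 members (23.9% of all genes) and above all controls for 8 (23.8%), and 1 member had an unadjusted p under 0.05, against 8.47% of all genes. The 7 were Polr1e, Ubtf, Taf1b, Taf1c, Rrp9, Nat10 and Pes1, and the 8 were Polr1b, Nop58, Ncl, Mybbp1a, Wdr43, Nop14, Rrp12 and Rrs1. Scaled differences of single members ran from -0.45 (Rrp9) to 0.37 (Nop14). On the same scale 15 of 15 proximal tubule markers lay above the control mean in this mouse, with a median of 2.35. Of 16 endothelial markers 0 lay above it, with a median of -0.29. In this mouse cell-type marker levels and genotype cannot be told apart either. The members held 0.199% of nuclear protein-coding fragments in I-PpoI mouse 3 (0.195 to 0.202%, a 95% interval by the exact Clopper-Pearson method), against 0.191, 0.201 and 0.194% in control mice 1, 2 and 3, so this share lay within the controls' range. The interval covers counting error only.

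In I-PpoI mice 1 and 2 the same share was 0.283% (0.273 to 0.293%) and 0.287% (0.270 to 0.305%), above all controls. Bysl alone gave 918 of the 3173 member fragments in I-PpoI mouse 1 and 324 of 1082 in I-PpoI mouse 2, against 420 to 470 of 23188 to 27263 in the controls. In the 11 members with no gene on the other strand within 5 kb, the share of strand-clear protein-coding fragments was 0.303, 0.263 and 0.187% in I-PpoI mice 1, 2 and 3, against 0.188, 0.196 and 0.183% in control mice 1, 2 and 3. Ubtf alone gave 479 of the 725 fragments of these members in I-PpoI mouse 1 and 93 of 209 in I-PpoI mouse 2. It gave 1326 of 4325 in I-PpoI mouse 3, and 3593 of 9371, 3018 of 7920 and 3047 of 8717 in control mice 1, 2 and 3. A large part of each share was thus Ubtf. The share without Ubtf was not tested, so nothing is concluded on the 11 members as a group.

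Only 3 members lay above all controls in both I-PpoI mouse 1 and I-PpoI mouse 2, against 21.7% of all genes, and 24 lay below, against 51.9%. Bysl, which helps finish the small subunit, was at 149, 100 and 4.23 FPKM in mice 1, 2 and 3 of the I-PpoI group, against 6.74, 8.67 and 6.44 FPKM in control (log2 fold change 2.38, SE 1.24, limma adjusted p = 0.168; exact two-sided permutation p = 0.4). Mice 1 and 2 stood high and mouse 3 below every control. Bysl lies at chr17:47599331-47611492 on the minus strand and shares 361 of its 3854 exon bases with Ccnd3, a G1 cyclin on the plus strand. Ccnd3 was at 13.0, 9.38 and 13.3 FPKM in I-PpoI, against 19.2, 29.4 and 20.5 FPKM in control. Heatr1, an early small-subunit factor, showed the same order, at 22.1, 15.7 and 2.22 FPKM in I-PpoI, against 4.27, 2.82 and 2.94 FPKM in control, and shares 155 exon bases with Lgals8, a galectin gene. Lgals8 was at 5.07, 3.24 and 10.4 FPKM in I-PpoI, against 20.4, 17.8 and 18.6 FPKM in control. Mybbp1a, a nucleolar Myb-binding protein, was at 38.1, 24.1 and 10.9 FPKM in I-PpoI, against 18.5, 13.0 and 16.5 FPKM in control, and shares 131 exon bases with Spns2, a sphingosine phosphate exporter of endothelium. Spns2 was at 21.1, 8.48 and 17.9 FPKM in I-PpoI, against 35.7, 34.6 and 29.4 FPKM in control.

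**Figure D2:**
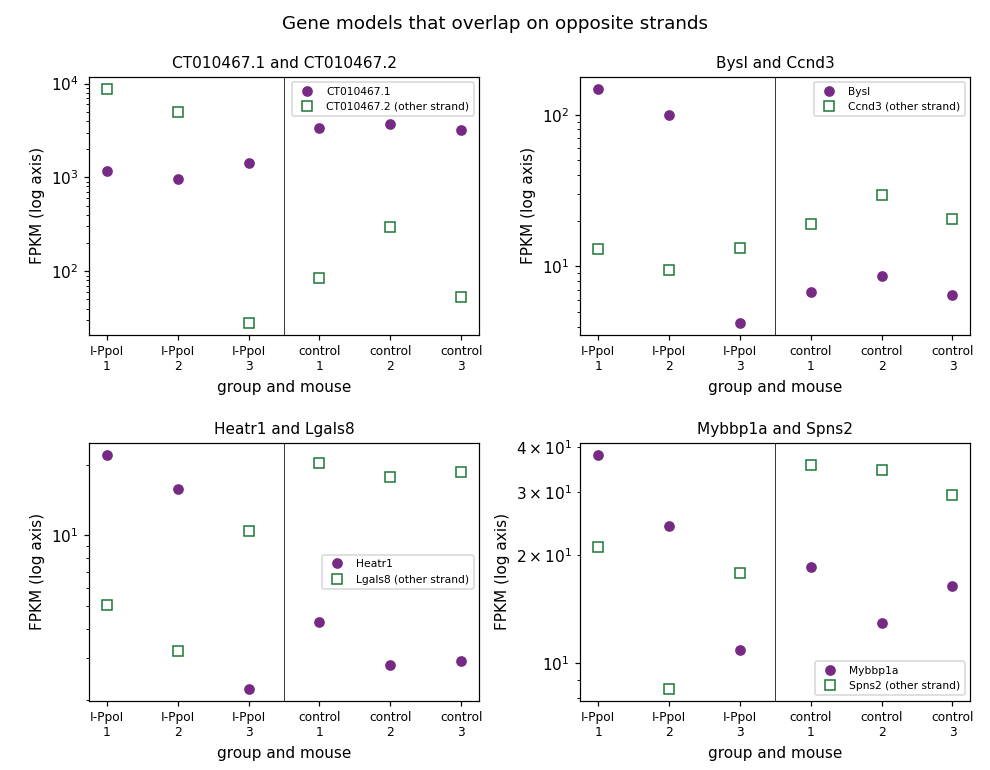
FPKM (log axis) of gene models that overlap on opposite strands as the file gives them, with filled purple circles for the first-named model and open green squares for its neighbour on the other strand, in I-PpoI mice 1, 2 and 3 and control mice 1, 2 and 3. Bysl, Heatr1, Mybbp1a and CT010467.2 are high in I-PpoI mice 1 and 2, and each is below every control in I-PpoI mouse 3.

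The reverse was seen for some neighbours of other members. The model 4930556J24Rik, across from Pes1, was at 70.5, 58.7 and 0 FPKM in mice 1, 2 and 3 of the I-PpoI group, against 0.406, 0.116 and 0.0967 FPKM in control. Gm15522, an antisense model across from Nop14, was at 44.5, 31.9 and 0.0956 FPKM in I-PpoI, against 0.552, 0.453 and 0.301 FPKM in control. Dnaaf1, an assembly factor of ciliary motors across from Taf1c, was at 17.2, 8.04 and 0 FPKM in I-PpoI, against 0.0219, 0.479 and 0.0627 FPKM in control. In these pairs it was the neighbour that stood high in I-PpoI mice 1 and 2, while Pes1, Nop14 and Taf1c stood low. Gm26628, across from Polr1a, also stood high there, at 15.6 and 4.17 FPKM against at most 0.180 FPKM in control. Idh3b, Mpp1, Rmnd5b, Pbrm1, Parp3, Mroh1, Carf, 4931406C07Rik, Cep295 and Gm30091, which also overlap members, did not stand above every control in both mice. The neighbours that stood high were named after their values were seen.

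Across all genes tested, the median difference from the control mean in I-PpoI mouse 1 was -0.89 for genes clear of the other strand, and 0.54 for genes whose exons overlap one there. In I-PpoI mouse 2 these medians were -1.32 and 0.15, and in I-PpoI mouse 3 they were -0.60 and -0.46. The 11 clear members had medians of -0.68, -1.31 and -0.52 in I-PpoI mice 1, 2 and 3, and the 15 tested members with exon overlap -0.49, -0.80 and -0.55. Above all controls in both I-PpoI mouse 1 and I-PpoI mouse 2 were 3 of the 15 overlap members, against 2639 of 5714 overlap genes. Of the clear kind, 0 of 11 members and 104 of 4249 genes lay above.

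**Figure D3:**
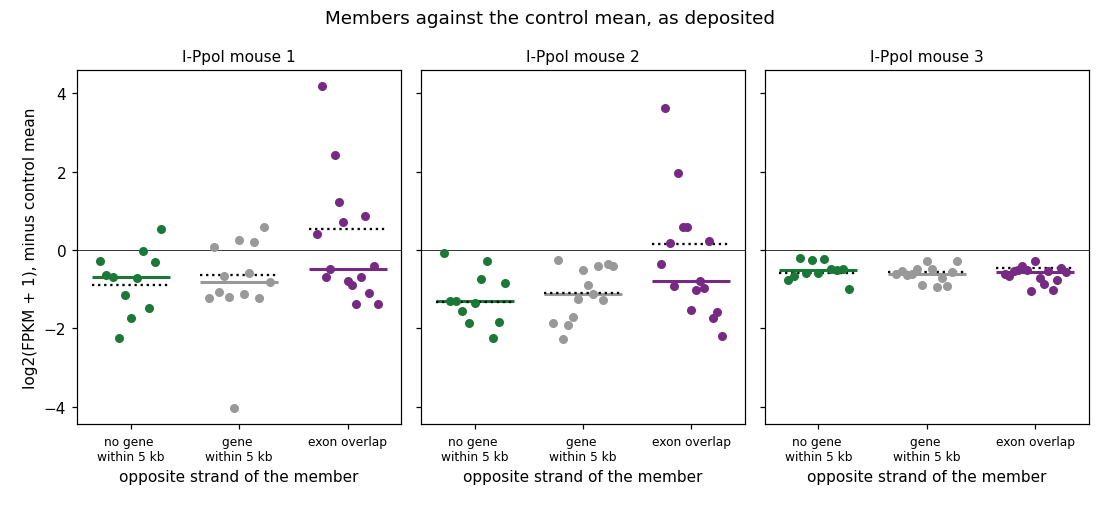
Difference of each tested member from the control mean on the log2(FPKM + 1) scale in I-PpoI mouse 1, 2 and 3, by what lies on the other strand. Solid bars are the members' medians and dotted bars the medians of all genes tested, and the spread is wide in I-PpoI mice 1 and 2 and narrow in I-PpoI mouse 3.

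Depth set a hard limit in I-PpoI mice 1 and 2, and not on the low members only. Npm1, the highest member in control, had 36 and 32 fragments there, and Nop10 had 1 and 9. The median member had 24, 9 and 214 fragments in I-PpoI mice 1, 2 and 3, against 426, 352 and 379 in control mice 1, 2 and 3. Under 10 fragments lay behind 8 of the 40 members in I-PpoI mouse 1, behind 21 in I-PpoI mouse 2 and behind 0 in the other libraries. Polr1b, Taf1a, Ttf1, Gar1 and Nat10 had 1 fragment each in I-PpoI mouse 2. Without I-PpoI mouse 3, 19 members passed lower at adjusted p under 0.05 (limma; 36.6% of all genes) and 2 higher (19.8%), which were Bysl and Heatr1, so that library decides the count. That comparison rests on the libraries with most mitochondrial fragments on the minus strand.

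**Figure D4:**
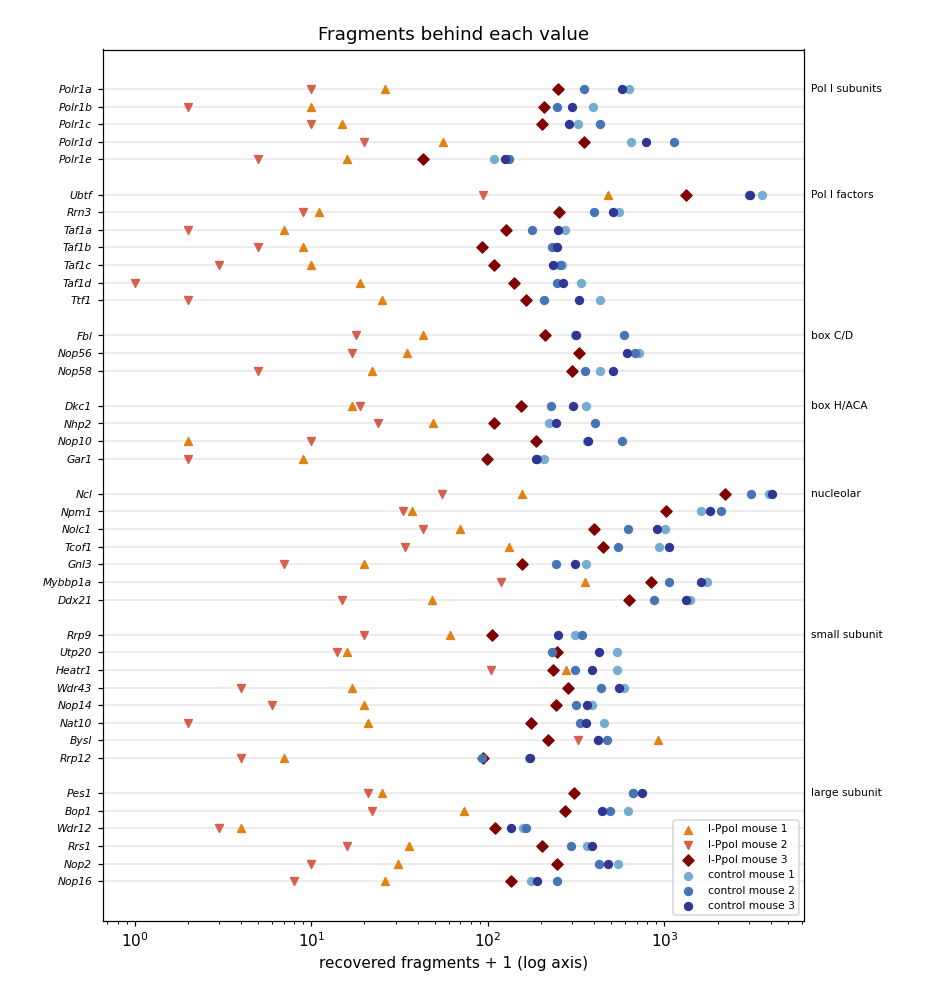
Fragments behind each member's value, recovered from FPKM and exon length, plus 1 on a log axis, with the same symbols for I-PpoI mice 1, 2 and 3 and control mice 1, 2 and 3. I-PpoI mouse 2 has a median of 9 fragments per member and the controls have 352 to 426.

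In control endothelium the members spanned a wide range of levels. Npm1 led at 44.4 ± 9.74 FPKM (SD, n = 3), followed by Ubtf at 31.4 ± 3.46, Nop10 at 25.5 ± 9.74 and Ncl at 23.0 ± 1.11 FPKM. Polr1e at 1.98 ± 0.348 and Wdr12 at 0.818 ± 0.157 FPKM were last. Neighbours in this order overlapped in their control libraries except for 3 steps, from Npm1 to Ubtf, from Taf1b to Taf1c and from Polr1e to Wdr12. The median control level was 7.13 FPKM over the 40 members and 5.16 FPKM over all genes tested. Spread between control mice was least for Ncl (coefficient of variation 4.83%) and most for Fbl (50.1%), with a median of 16.9% over the members and 22.8% over all genes.

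Lists for the rest of the pathway were chosen by function, and the genes named are those with the smallest p in each list, all lower in I-PpoI. The lists also hold genes on the higher side, with log2 fold changes of up to 3.89 (exosome), 3.17 (Pol III), 2.34 (small subunit) and 2.31 (break response). The median over all genes is -0.65. Of other Pol I and shared polymerase subunits, 0 of 8 tested passed in either direction at adjusted p under 0.05 (limma), and 3 had an unadjusted p under 0.05, with a median log2 fold change of -0.74. Znrd1, a Pol I subunit, was at 7.61, 10.2 and 11.6 FPKM in I-PpoI, against 18.7, 32.1 and 19.6 FPKM in control, and the subunit Twistnb at 1.45, 0.232 and 2.37 FPKM in I-PpoI, against 4.49, 3.41 and 3.73 FPKM in control. Of other small-subunit factors, 0 of 44 passed and 19 had an unadjusted p under 0.05 (median -0.87), among them Pwp2, at 1.29, 0.308 and 2.52 FPKM in I-PpoI, against 5.47, 6.35 and 5.21 FPKM in control. Of other large-subunit factors, 0 of 46 passed and 21 had an unadjusted p under 0.05 (median -0.81), with Pelp1 at 3.50, 3.35 and 4.53 FPKM in I-PpoI, against 9.78, 11.3 and 8.65 FPKM in control. Ltv1, an export factor of the small subunit, was at 2.96, 1.03 and 5.15 FPKM in I-PpoI, against 9.002, 10.2 and 8.28 FPKM in control. Gtpbp4, a nucleolar GTPase of the large subunit, was at 0.978, 0.873 and 2.34 FPKM in I-PpoI, against 4.74, 4.13 and 4.13 FPKM in control. After scaling these 3 medians were 0.01, -0.24 and -0.12.

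Counts past the threshold were also 0 for 13 exosome genes, 11 other small nucleolar ribonucleoprotein genes, 13 snoRNA host genes, 17 Pol III subunits, 11 genes of the 5S particle and its link to p53, 13 Myc and mTOR regulators and 7 genes of the nucleolar break response. Their medians were -0.57, -0.49, -1.17, -0.85, -0.71, -0.52 and -0.69 in that order, or 0.12, 0.14, -0.52, -0.22, -0.08, -0.01 and -0.05 after scaling, and 3, 3, 5, 7, 5, 5 and 1 genes had an unadjusted p under 0.05. The exosome cofactors C1d, at 0.299 to 4.41 FPKM in I-PpoI and 7.02 to 12.1 FPKM in control, and Mphosph6, at 0.482 to 3.03 against 4.15 to 5.74 FPKM, did not overlap between the groups. Nor did Snu13, a box C/D core protein, at 6.94 to 10.6 against 18.4 to 28.3 FPKM, or the ATPase Ruvbl1, at 3.14 to 8.26 against 12.3 to 14.7 FPKM. Snhg1, a snoRNA host, was at 0.420, 0 and 1.59 FPKM in I-PpoI, against 3.73, 5.002 and 3.48 FPKM in control. Snhg12 was at 0.994 to 2.03 FPKM in I-PpoI and 3.59 to 7.28 FPKM in control. The Pol III genes Polr3gl and Gtf3c5 were at 3.74 to 16.1 against 31.4 to 56.5 FPKM and at 0.523 to 2.68 against 5.05 to 6.90 FPKM. Rpl5, which with Rpl11 carries the nucleolar signal to Mdm2, was at 31.7, 34.7 and 39.8 FPKM in I-PpoI, against 58.5, 113 and 66.7 FPKM in control, and Mdm2 at 4.42, 3.05 and 4.98 against 11.4, 7.59 and 7.78 FPKM. Rheb, the GTPase that activates mTOR, was at 3.71 to 6.51 FPKM in I-PpoI and 10.7 to 15.8 FPKM in control, and Mxd4, a partner of Max, at 9.15 to 19.99 against 33.6 to 39.5 FPKM. Mre11a, a nuclease subunit of the break response, was at 0.947, 0.201 and 1.70 FPKM in I-PpoI, against 3.39, 2.18 and 3.32 FPKM in control, and Topbp1, a checkpoint scaffold, at 0.425 to 1.86 against 2.44 to 3.59 FPKM. Each of the genes named from these lists had a limma adjusted p of 0.132 to 0.135, and in I-PpoI mouse 3 alone, with the 4 libraries scaled, their differences ran from -0.59 for Polr3gl to 0.09 for Mphosph6. Gtpbp4, Polr3gl, Rpl5, Mxd4 and Mre11a overlap an exon on the other strand. Of 5 listed symbols for rRNA and small nuclear gene models 1 was found, Rn7sk, the RNA that holds back the elongation factor of Pol II, at 26.4, 10.8 and 18.1 FPKM in I-PpoI, against 30.7, 32.8 and 30.7 FPKM in control (limma adjusted p = 0.146).

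The file also holds the 18S model printed above, which was looked at after its values were seen, and whose strand differs between the file and GENCODE M21. RefSeq has a pseudogene, Rn18s-rs5, at the same place (chr17:39846354-39848202). CT010467.1 (chr17:39846353-39848201, plus strand) was at 1175, 954 and 1415 FPKM in mice 1, 2 and 3 of the I-PpoI group, against 3357, 3753 and 3177 FPKM in control. All I-PpoI libraries lay below all controls, with means of 1181 ± 230 against 3429 ± 294 FPKM (SD, n = 3 each), and the log2 fold change was -1.55 (SE 0.31, limma adjusted p = 0.132). After scaling it was -0.70 (adjusted p = 0.318), and in I-PpoI mouse 3 alone against the controls, scaled, -0.54. The minus-strand model CT010467.2 was at 8814, 5021 and 28.1 FPKM in I-PpoI, against 85.2, 296 and 53.0 FPKM in control, so only I-PpoI mice 1 and 2 stood high. How rRNA was removed before sequencing is not given in the sources used here, so these values cannot be read as rRNA made by Pol I.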

How the data were processed

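The 6 libraries were deposited by the authors as 1 table of gene-level FPKM, scaled by exon length and library size. The builds mm10 and GRCm38 come from the submitters' processing notes. How reads were aligned and counted, and with which strand setting, is not given in the sources used here. Coordinates are the file's. Whole fragments were recovered from FPKM and GENCODE M21 exon lengths for the 54907 of 55487 genes placed alike, and opposite-strand neighbours were taken from the same annotation. Totals were 828906 to 16722913 fragments.

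Groups came from the labels (3 against 3). Limma 3.58.1 in R 4.3.3 was fitted without a block to log2(FPKM + 1), leaving out genes whose mean was under 1 FPKM. The fit was checked on data simulated from the control profile at the recovered library totals. That simulation held no strand, mitochondrial or cell-type differences, so it does not show how the fit behaves with them. Single members had exact permutation tests. Full values are given for the member of highest mean and that of smallest p in each role, and the 2 of smallest p are named from each other list. Members, roles and lists were chosen with earlier results of these data known. Alternatives were pseudocounts of 0.1 and 0.5, filters, 2 scalings, gene subsets, limma-voom, a replicate block and left-out libraries. Other tools were matplotlib 3.10.9, scipy 1.17.1, pandas 2.3.3, numpy 2.4.6 and Python 3.11.15. No proteins were printed.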

Additional observations from a re-analysis of the deposited data

How the results depend on the processing

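The count of members past the threshold stayed at 0, as did that of all genes, with pseudocounts of 0.1 and 0.5, no filter, a filter of 5 FPKM, both scalings, protein-coding genes only, strand-clear genes with median-of-ratios scaling, limma-voom, and without I-PpoI mice 1 and 2. Without those 2 mice and with median-of-ratios scaling, added after the data were seen, 1 gene and 0 members passed. With each library left out in turn, 0 to 8438 genes and 0 to 21 members passed, the highest counts without I-PpoI mouse 3. In the fits without mice 1 and 2 mouse 3 alone stands for I-PpoI, and its variation is taken to equal that of the controls.

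The members' median of -0.82 was -0.98 with a pseudocount of 0.1, against -0.84 for all genes. With at least 5 FPKM it was -0.40, against -0.73 for all genes. With protein-coding genes only it stayed at -0.82, against -0.78. It was -0.12 with median-of-ratios scaling, against 0.02, and -0.42 with a common protein-coding total, against -0.26. Over strand-clear members, with median-of-ratios scaling taken over strand-clear genes, it was -0.058, against -0.036 for all strand-clear genes. Unscaled, those 11 members had -0.87. Without I-PpoI mice 1 and 2 the members' median was -0.57, and with the 2 scalings of the 4 libraries 0.033 and 0.038. Leaving out 1 library gave -0.95 to -0.54. The number of members above 0, 5 as reported, was 15 and 13 with the 2 scalings, 3 with limma-voom, 0 without I-PpoI mice 1 and 2, 22 and 23 with the 4 libraries scaled, and 3 to 7 with 1 library left out.

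Signs of single members turned under several settings. With median-of-ratios scaling the log2 fold changes were 0.21 for Polr1e, 0.38 for Ubtf, 0.48 for Fbl, 0.34 for Dkc1, 0.42 for Nolc1, 0.65 for Tcof1, 0.056 for Utp20, 0.59 for Bop1, 0.52 for Rrs1 and 0.54 for Nop16. With a common total they were 0.042 for Ubtf, 0.19 for Fbl, 0.056 for Dkc1, 0.093 for Nolc1, 0.33 for Tcof1, 0.27 for Bop1, 0.19 for Rrs1 and 0.24 for Nop16. Over strand-clear genes with median-of-ratios scaling over those genes they were 0.68 for Ubtf, 0.71 for Nolc1, 0.11 for Rrp12, 0.80 for Rrs1 and 0.15 for Nop2. Limma-voom gave -0.56 for Nhp2 and -0.65 for Rrp9, and a pseudocount of 0.1 gave -0.0073 for Rrp9. Without I-PpoI mice 1 and 2 the values were -1.04 for Nhp2, -0.51 for Mybbp1a, -1.02 for Rrp9, -0.41 for Heatr1 and -0.66 for Bysl. With 1 library left out, Fbl ran from -0.41 to 0.10, Nhp2 from -0.22 to 0.65, Tcof1 from -0.46 to 0.11, Rrp9 from -0.40 to 0.55, Bop1 from -0.49 to 0.032 and Nop16 from -0.41 to 0.0069. The causes were not tested.

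Same-numbered libraries of the 2 groups correlated at 0.09, 0.06 and -0.02 in their deviations. Libraries of unlike number correlated at -0.11 to 0.03. Values this low, from so few pairs, cannot decide whether same-numbered libraries share more than a number. With the replicate block, 0 genes and 0 members passed, the median was -0.82 and 5 members were above 0.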
